A study of Mus musculus with 16 samples.

Results

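The small RNA of AFT024 cells was compared with that of BFC012 cells, miRNA arm by miRNA arm. These cells account for 4 of the 16 samples of the series, 2 per line, and of 2386 arms listed, 640 reached a normalized value of 10 in at least 1 line and are described here. Both are stromal lines derived from the fetal liver of C57BL/6 mice at 14.5 dpc (days post coitum), with no transgene or treatment named. The labels class AFT024 as supportive and BFC012 as non-supportive of hematopoietic stem and progenitor cells. Each class is represented by a single line, so a difference between the lines and a difference between the classes cannot be told apart. The deposited tables hold 1 merged value per line. The comparison therefore has no replicate check and no p-value, and the intervals given cover counting error only.

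MicroRNAs are short RNAs cut from a hairpin precursor. Either strand of the hairpin, the 5p or the 3p arm, can be loaded into an Argonaute protein, and pairing of the seed (bases 2 to 8) with a messenger RNA lowers that messenger's stability and translation. Many miRNA genes lie in clusters that are transcribed together or in introns of a host gene, and some precursors exist in several genomic copies that give the same mature arm.

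The mature sequences that the results turn on are shown first, with the seed in capitals, 5′ to 3′. They are RefSeq entries (build GRCm38.p6), where 413 of the 640 arms were matched. The first set belongs to the imprinted Dlk1-Dio3 cluster and holds its most abundant arms and 3 arms whose BFC012 count was under 5 reads.
miR-127-3p: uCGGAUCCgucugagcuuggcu
miR-411-5p: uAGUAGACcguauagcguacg
miR-434-3p: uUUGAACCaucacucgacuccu
miR-541-5p: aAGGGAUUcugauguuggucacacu
miR-410-3p: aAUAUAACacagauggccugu
miR-300-3p: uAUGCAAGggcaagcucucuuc
miR-381-3p: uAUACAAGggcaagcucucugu
miR-431-5p: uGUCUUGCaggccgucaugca
miR-540-3p: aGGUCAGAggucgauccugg
miR-134-5p: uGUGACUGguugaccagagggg

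The second set shows arms that 2 genomic copies share, each followed by the arms that tell the copies apart. The 5p arms of miR-181a-1 and miR-181a-2, of miR-196a-1 and miR-196a-2, of miR-218-1 and miR-218-2 and of miR-26a-1 and miR-26a-2 cannot be assigned to a copy from their letters, whereas the 3p arms can.
miR-181a-1-5p: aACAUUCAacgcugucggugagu
miR-181a-1-3p: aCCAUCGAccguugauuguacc
miR-181a-2-3p: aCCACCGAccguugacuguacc
miR-181b-1-3p: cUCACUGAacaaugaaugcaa
miR-181b-2-3p: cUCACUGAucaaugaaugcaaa
miR-196a-1-5p: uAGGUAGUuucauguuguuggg
miR-196a-1-3p: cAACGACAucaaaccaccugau
miR-196a-2-3p: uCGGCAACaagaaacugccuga
miR-218-1-5p: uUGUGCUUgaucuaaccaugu
miR-218-1-3p: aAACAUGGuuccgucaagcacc
miR-218-2-3p: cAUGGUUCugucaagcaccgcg
miR-26a-1-5p: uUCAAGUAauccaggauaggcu
miR-26a-1-3p: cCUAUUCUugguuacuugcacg
miR-26a-2-3p: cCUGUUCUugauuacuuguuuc

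The third set holds single arms with large differences, and the pair miR-760-5p and miR-760-3p, which are opposite arms of 1 hairpin. The seed AGGUAGU of miR-196b-5p is the same as that of miR-196a-5p above.
miR-196b-5p: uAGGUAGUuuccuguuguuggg
miR-676-3p: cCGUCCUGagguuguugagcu
miR-335-3p: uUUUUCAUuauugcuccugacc
miR-130b-3p: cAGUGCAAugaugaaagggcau
miR-149-5p: uCUGGCUCcgugucuucacuccc
miR-582-3p: uAACCUGUugaacaacugaac
miR-672-5p: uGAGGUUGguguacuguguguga
miR-322-5p: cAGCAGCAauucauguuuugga
miR-148a-3p: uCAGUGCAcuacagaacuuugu
miR-31-5p: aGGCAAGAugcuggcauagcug
miR-760-5p: cCCCUCAGgccaccagagcccgg
miR-760-3p: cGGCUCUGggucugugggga

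Sequencing depth was similar, with miRNA read totals of 17293776 (AFT024) and 17547485 (BFC012). A count of 0 allows up to 3 reads, or 0.173 and 0.171 RPM (reads scaled to the miRNA total of the library). Stromal markers were read in both lines at unequal levels: in polyA RNA of the same cells Vim (vimentin) had 102047 reads in AFT024 and 56662 in BFC012, and Col1a1 (type I collagen) had 79061 and 18230. Col1a2, the partner chain of Col1a1, had 1717 and 12 reads (138-fold higher in AFT024, 78.6 to 267). The leukocyte gene Ptprc had 1 and 2 reads and the hepatocyte gene Alb 0 and 1. Another hepatocyte marker, Afp, had 9 and 34 reads (3.93-fold higher in BFC012, 1.85 to 9.31). The liver miRNA miR-122 had 0 and 1 read. The epithelial adhesion gene Cdh1 had 3 reads in AFT024 and 756 in BFC012, whereas the epithelial gene Epcam had 4 and 0. Of the epithelial miRNAs, miR-200b-3p had 118 and 336 reads (2.82-fold higher in BFC012, 2.28 to 3.51), miR-429-3p 44 and 132 (2.97-fold, 2.10 to 4.28) and miR-200a-3p 8 and 50 (6.19-fold, 2.91 to 15.1). miR-205-5p went the other way, with 284 and 23 reads, so the near-equal sums over the 7 miRNAs of the miR-200 family, miR-203 and miR-205, 39.6 and 40.3 RPM, hold members that differ in opposite directions. The part of the Cdh1 difference in the results was not tested.

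The most abundant miRNAs were largely shared. miR-21a-5p, which is widely expressed and often raised in proliferating cells, had 3140349 reads in AFT024 and 1925864 in BFC012, a 1.65-fold difference (95% interval 1.64 to 1.65). miR-22-3p had 2817252 and 1734484 reads. These arms led both libraries, and the 10 most-read arms of each line held 60.0% of AFT024 reads and 52.9% of BFC012 reads. miR-10a-5p, encoded in the HoxB cluster, went the other way, with 424829 and 835067 reads. miR-31-5p had 251318 and 811220 reads and was 3.20-fold (3.18 to 3.21) higher in BFC012. miR-27b-3p had 211906 and 525440 reads and was 2.46-fold (2.44 to 2.47) higher in BFC012.

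A difference was called at 2-fold on log2(normalized value + 1), AFT024 minus BFC012, a scale that understates the change of low arms. Of the 640 arms, 133 were higher in AFT024 (20.8%), 137 were lower (21.4%) and 370 (57.8%) lay between. The median log2 difference was -0.01, with quartiles of -0.80 and 0.82. Leaving the 10 most-read arms out of the library totals moved that median by 0.24 and the calls to 174 higher and 104 lower, so that the share of calls that were higher went from 49.3% to 62.6%. Among the 173 arms with a value of 1000 or more in a line, 29 were higher, 25 lower and 119 (68.8%) between. The largest differences were on the AFT024 side, where 53 arms were 16-fold or more higher against 7 that were 16-fold or more lower. The lower arms held more of the RNA: they made up 17.3% of BFC012 reads and 5.39% of AFT024 reads, whereas the higher arms made up 5.16% of AFT024 reads and 1.74% of BFC012 reads. Of the kept arms, 99 passed the value minimum through AFT024 alone and 89 through BFC012 alone, and such arms are biased towards a difference.

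**Figure D1:**
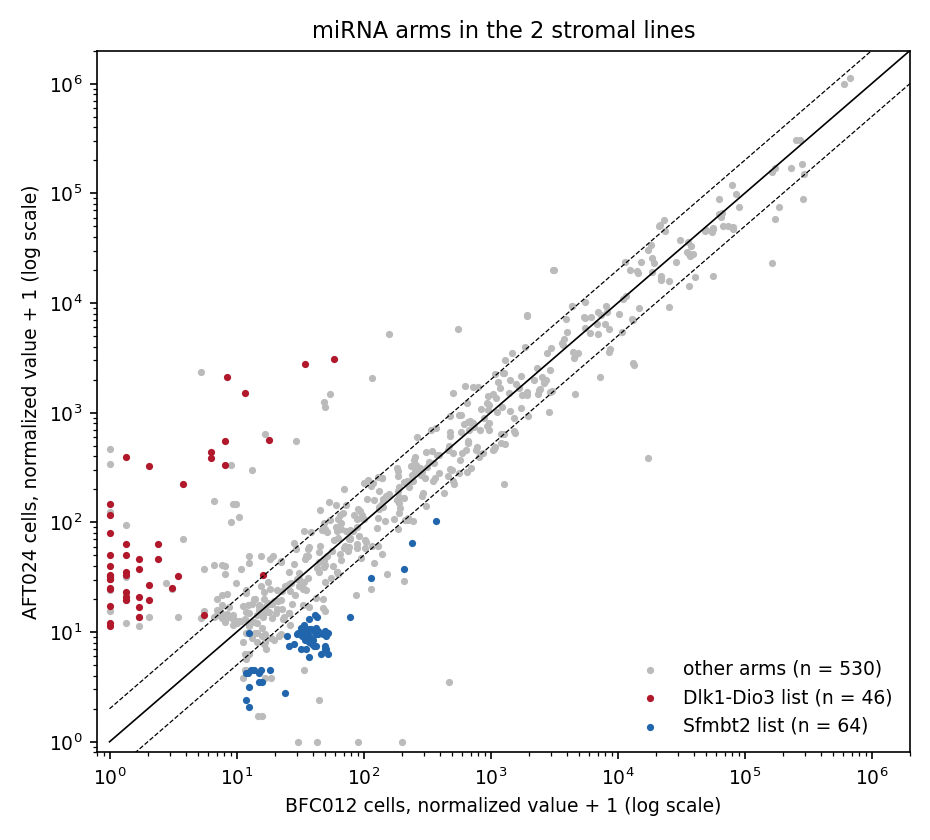
Normalized value plus 1 of each of the 640 arms in BFC012 cells (x axis) and AFT024 cells (y axis), both on log scales, with 1 point per arm, a solid line at equality and dashed lines at 2-fold. The 46 arms of the Dlk1-Dio3 list lie above the upper dashed line and 63 of the 64 arms of the Sfmbt2 list below the lower one.

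Counted by arms, a pair of miRNA lists accounted for much of the called set. The Dlk1-Dio3 list gave 34.6% of the arms called higher and 33 of the 53 arms at 16-fold. The Sfmbt2 list gave 46.0% of the arms called lower. Its 64 kept arms had only 30 mature names, since numbered copies are counted separately. All its listed arms together held 0.0517% of BFC012 reads. Outside both lists 530 arms were kept, of which 87 (16.4%) were higher and 74 lower.

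The Dlk1-Dio3 domain on chromosome 12 is imprinted. Its miRNAs are expressed from the maternal chromosome together with the noncoding RNAs Meg3, Rian and Mirg, whereas the protein-coding gene Dlk1 is expressed from the paternal one. All 46 kept arms were called higher in AFT024, with a median log2 difference of 4.85 (range 1.05 to 8.20) against -0.01 over all arms. Of these, 5 passed the value minimum in both lines and 41 through AFT024 alone, so most of them had to differ to be counted, and the read numbers are the measure. Over all 122 listed arms, 87 of them with a read, there were 39770 reads in AFT024 and 558 in BFC012, or 2300 and 31.8 RPM, a summed difference of 71.9-fold (66.2 to 78.3). In AFT024 the kept arms ranged from 29 to 8639 reads with a median of 100. In BFC012 they ranged from 0 to 164 with a median of 2.00.

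miR-127-3p, the most abundant member and a miRNA with perfect complementarity to the paternally expressed Rtl1 transcript, had 8639 reads in AFT024 and 164 in BFC012, a 53.2-fold difference (45.6 to 62.4). miR-411-5p had 7870 and 95 reads (83.6-fold, 68.3 to 103). miR-434-3p had 6002 and 21 reads (288-fold, 189 to 466). Each of these was well counted in AFT024 and detected at far fewer reads in BFC012. miR-541-5p had 4278 and 30 reads (144-fold, 101 to 214). miR-410-3p had 1577 and 48 reads (33.2-fold, 24.9 to 45.2), and miR-300-3p had 1556 and 20 (78.5-fold, 50.7 to 129). Further arms had no read in BFC012, among them miR-540-3p with 414 reads in AFT024 (at least 139-fold higher, against the limit of 3 reads) and miR-134-5p, a brain-enriched miRNA, with 325 (at least 109-fold higher). The smallest difference was that of miR-369-3p, with 91 and 43 reads (2.14-fold, 1.47 to 3.15).

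With a gap of at most 10 kb between neighbours, the kept hairpins with a RefSeq position fell into 3 groups on chromosome 12 (GRCm38.p6): 9 hairpins at chr12:109571990-109595388, 2 hairpins in introns of Rian at chr12:109611500-109618336, and 25 hairpins at chr12:109709060-109743795. Over every listed arm with a RefSeq position in these spans, with no value minimum, the first group had 18785 reads in AFT024 and 235 in BFC012 (26 arms, 80.7-fold, 70.9 to 92.2). The second had 727 and 9 (6 arms, 81.5-fold, 42.7 to 179) and the third 20020 and 299 (72 arms, 67.6-fold, 60.3 to 76.0). PolyA RNA of the same cells gave the same direction: Dlk1 had 29686 reads in AFT024 and 9 in BFC012, Meg3 had 394 and 0, Rian 464 and 8, and Mirg 11 and 0. Begain, a gene at the border of the domain, had 13 and 11 reads (1.14-fold, 0.470 to 2.80), and Dio3 had 0 in each.

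**Figure D2:**
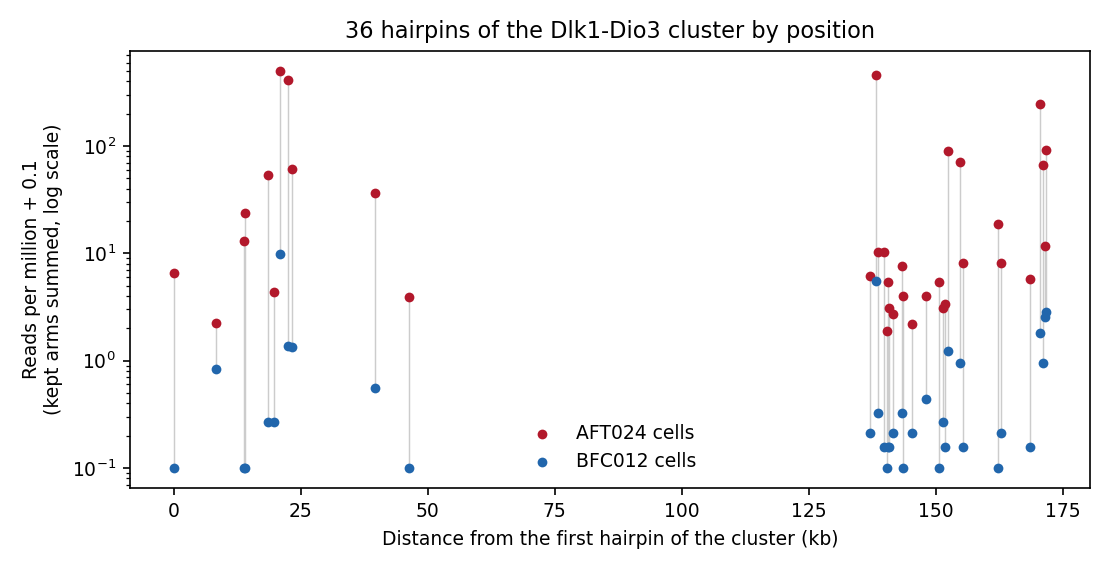
RPM plus 0.1 (log scale), summed over the kept arms of each of 36 hairpins of the Dlk1-Dio3 cluster, against the distance in kb from the first of them. Red points are AFT024 cells and blue points BFC012 cells, joined by a line for each hairpin, and the AFT024 point is the upper one at every hairpin. Of the 46 kept arms of the cluster, 41 passed the value minimum through AFT024 alone.

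The Sfmbt2 list holds rodent miRNAs of the miR-297, miR-466, miR-467 and miR-669 families. Many of them lie in a large repeated array in an intron of the Polycomb-related gene Sfmbt2. Members were assigned by family name, and their positions were not checked. Of 64 kept arms 63 were called lower in AFT024 and 1 lay between, with a median log2 difference of -2.01. Only 9 passed the value minimum in both lines and 55 passed through BFC012 alone. Over all 162 listed arms, 148 of them with a read, there were 2095 reads in AFT024 and 9069 in BFC012, or 121 and 517 RPM, a sum 4.29-fold (4.09 to 4.50) higher in BFC012. The members are near-identical copies whose reads the counting could have split, so single values are uncertain and the sum is the firmer measure.

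miR-467d-5p, the most-read member, had 288 reads in AFT024 and 1057 in BFC012 (3.64-fold, 3.19 to 4.16). miR-467c-5p had 179 and 676 reads, and miR-466g-3p had 102 and 588. The list was thus low in both lines and detected in each. Sfmbt2 itself had 87 polyA reads in AFT024 and 369 in BFC012, a difference of 4.41-fold (3.48 to 5.64) beside the 4.29-fold of the summed miRNAs. The exception, miR-297a-1-5p, had 25 and 33 reads (1.31-fold, 0.754 to 2.29).

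**Figure D3:**
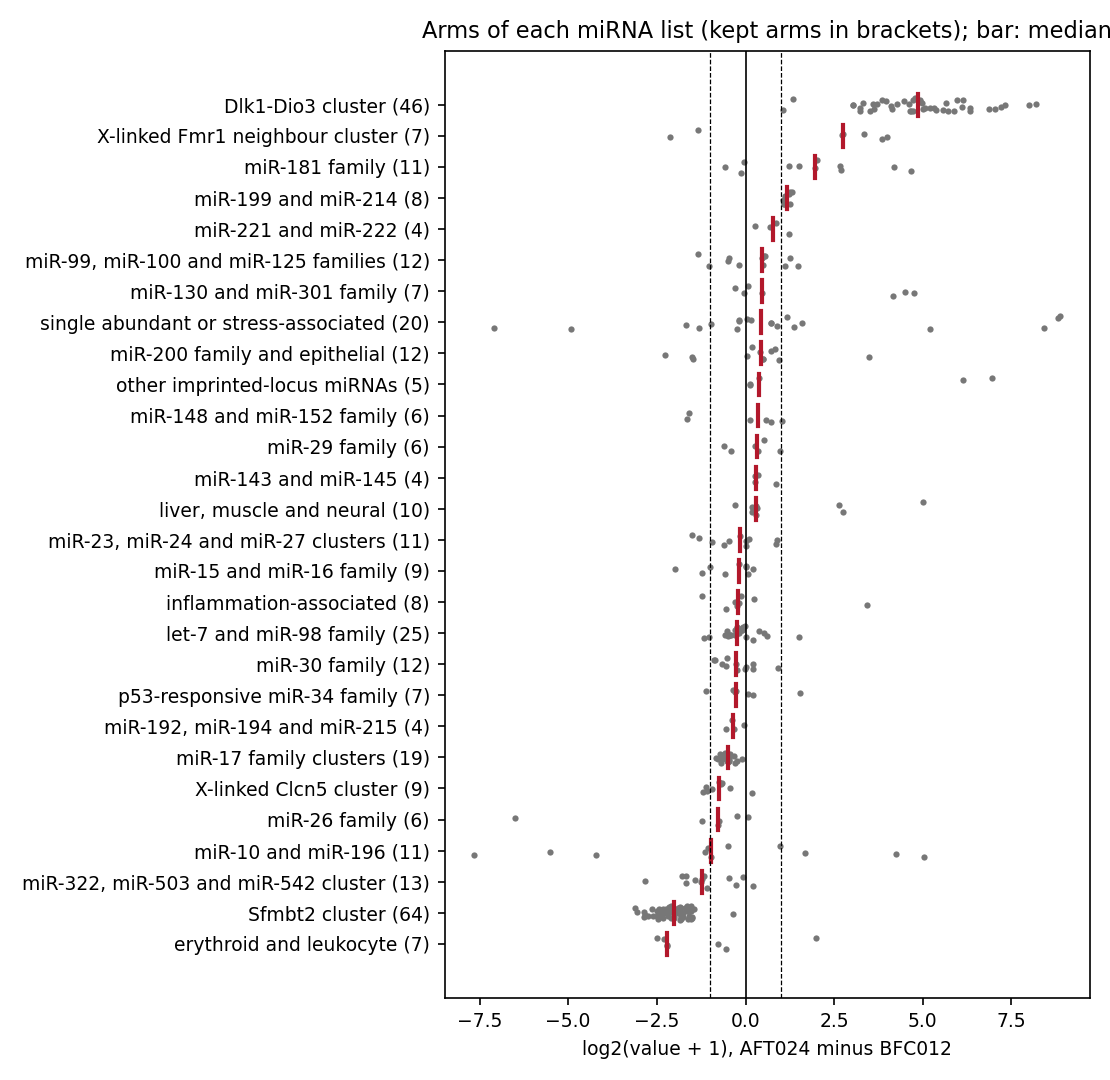
Difference in log2(normalized value + 1), AFT024 minus BFC012, of each kept arm (grey points) in the miRNA lists with 4 or more kept arms, with the number of kept arms in brackets and a red bar at the median; dashed lines mark 2-fold. The Dlk1-Dio3 list has its median at 4.85 and the Sfmbt2 list at -2.01, and most other lists have theirs between the dashed lines.

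The miRNAs of the Hox clusters were divided between the lines. Hox genes encode transcription factors that mark position along the body axis, and miR-10 and miR-196 genes sit among them. miR-196b-5p, in an exon of Hoxa9 at chr6:52230081-52230165, had 1084 reads in AFT024 and 49507 in BFC012 (45.2-fold higher in BFC012, 42.6 to 48.1). Its other arm, miR-196b-3p, had 4 and 124 reads. miR-615-3p, which lies in the Hoxc5 gene, had 14668 and 448 reads and was 33.0-fold (30.1 to 36.4) higher in AFT024, and miR-615-5p had 1553 and 81.

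The polyA reads of the neighbouring Hox genes, which were picked after values had been seen, had matching directions. Hoxa9 had 159 reads in AFT024 and 1909 in BFC012 (12.5-fold higher in BFC012, 10.6 to 14.8), and Hoxa10 had 179 and 2901. Hoxc5 had 357 and 7 reads (49.0-fold higher in AFT024, 23.6 to 123), and Hoxc8 had 3086 and 2. The HoxA genes examined, Hoxa7, Hoxa9 and Hoxa10, were thus higher in BFC012, and the HoxC genes examined were higher in AFT024. Other HoxA genes were not examined. In the HoxB cluster Hoxb7 had 2 and 363 reads and Hoxb9 356 and 1707, whereas Hoxb4 had 263 and 232 (1.09-fold, 0.910 to 1.31).

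Arms that tell genomic copies apart separated what the shared arms merged. The shared miR-196a-5p sequence, counted at either copy, was modestly higher in BFC012: the value named miR-196a-1-5p had 888 and 1983 reads (2.21-fold, 2.04 to 2.40) and that named miR-196a-2-5p had 2646 and 5547. The 3p arm of the HoxB copy, miR-196a-1-3p (hairpin at chr11:96265164-96265265), had 0 reads in AFT024 and 571 in BFC012, at least 189-fold higher in BFC012. The 3p arm of the HoxC copy, miR-196a-2-3p (chr15:102973350-102973434, an intron of Hoxc5), had 136 and 41 reads and was 3.35-fold (2.35 to 4.87) higher in AFT024. The copies therefore differed in opposite directions between the lines, as did Hoxb9 and Hoxc5.

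The miR-218 copies, which lie in introns of the axon guidance genes Slit2 and Slit3, showed a like split. The shared 5p arm had 1812 and 3613 reads under the name miR-218-1-5p and 1457 and 3688 under miR-218-2-5p. The Slit2 copy's own arm, miR-218-1-3p (chr5:48223942-48224051), had 137 reads in AFT024 and 52 in BFC012 (2.66-fold, 1.92 to 3.73). The Slit3 copy's own arm, miR-218-2-3p (chr11:35616816-35616925), had 0 and 83 reads, at least 27.4-fold higher in BFC012. In polyA RNA Slit2 had 2529 and 863 reads (2.82-fold higher in AFT024, 2.61 to 3.05) and Slit3 had 333 and 9893 (30.9-fold higher in BFC012, 27.7 to 34.6). Each copy's own arm went in the direction of its host gene.

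The miR-181 family, known for roles in lymphoid development, was higher in AFT024 in 8 of 11 kept arms, with a median log2 difference of 1.97 and a difference of 4.97-fold (4.92 to 5.03) in the sum over its 12 arms in the table. The shared arm miR-181a-5p had 56517 and 8851 reads under the name miR-181a-1-5p (6.45-fold, 6.30 to 6.59). The copies were unequal: miR-181a-1-3p, on chromosome 1 at chr1:137966455-137966541, had 3523 and 136 reads (a log2 difference of 4.68), whereas miR-181a-2-3p, at chr2:38852735-38852810, had 8470 and 3679 (2.32-fold, 2.24 to 2.42). The miR-181b copies beside them repeated this, with 195 and 8 reads for miR-181b-1-3p and 59 and 19 for miR-181b-2-3p. The third genomic copy differed little: miR-181c-5p had 982 and 1016 reads (1.03-fold, 0.938 to 1.12) and miR-181d-5p had 583 and 646.

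The shared miR-26a-5p arm had 134473 reads in AFT024 and 231727 in BFC012 (1.71-fold higher in BFC012, 1.70 to 1.72). The passenger arm of its second copy, miR-26a-2-3p, in an exon of Ctdsp2 at chr10:126995530-126995613, had 0 and 253 reads, at least 83.6-fold higher in BFC012. Ctdsp2 polyA reads were 6951 and 9574 (1.43-fold, 1.39 to 1.48). The arm differed far more than its host gene. The passenger arm of the first copy, miR-26a-1-3p, had 24 and 60 reads.

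The miR-199 and miR-214 list and the X-linked miR-322 cluster differed in opposite directions. miR-199 and miR-214, which are typical of mesenchymal cells, were higher in AFT024 in 8 of 8 arms (median log2 difference 1.17, summed 2.38-fold, 2.37 to 2.39). miR-214-3p had 9791 and 4206 reads, and the host transcript Dnm3os had 1626 and 620 polyA reads (2.52-fold, 2.30 to 2.77). The X-linked miR-322, miR-351, miR-450, miR-503 and miR-542 cluster had 9 of 13 kept arms called lower and 4 between, a median of -1.24 and a difference of 4.85-fold (4.82 to 4.88) in the sum over its 14 arms in the table. With the 10 most-read arms left out of the totals, 7 of its 13 arms were called lower. miR-351-5p had 65439 reads in AFT024 and 466777 in BFC012 (7.07-fold, 7.01 to 7.13), and miR-322-5p, which carries the miR-16 seed and is linked to cell cycle arrest, had 49207 and 159341. miR-503-5p, in the same cluster, had 113 and 139 reads (1.22-fold, 0.944 to 1.58).

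Reads were also summed over the mature sequences that share a seed. These sums can be partial, since they hold only kept arms matched to RefSeq and count each sequence under a single name. For the seed AGCAGCA the sum held miR-16-1-5p, miR-15b-5p, miR-195a-5p and miR-322-5p. It had 258898 reads in AFT024 and 369670 in BFC012, a 1.41-fold difference (1.41 to 1.42). miR-322-5p alone was 3.21-fold (3.18 to 3.24) higher in BFC012. The family arms miR-15a-5p and miR-497a-5p and the name miR-16-2-5p were not in that sum. All listed arms of the miR-15 and miR-16 family, which leaves out miR-322, had 407404 and 411120 reads. The seed CAGUGCA of miR-148 and miR-152 joined members called in opposite directions. miR-148a-3p had 163270 and 492015 reads (2.99-fold higher in BFC012), and miR-148b-3p, in an intron of Copz1, had 65973 and 32556 (2.05-fold higher in AFT024, 2.02 to 2.07). The sum of that seed was 2.24-fold (2.23 to 2.25) higher in BFC012. For the seed AGUGCAA the sum held miR-130a-3p and miR-130b-3p alone and was 1.14-fold (1.13 to 1.15) higher in BFC012. miR-130a-3p, with 66021 and 82573 reads, made up 91.8% and 99.6% of that sum. The miR-301 arms of the same family were not in it. All listed miR-130 and miR-301 arms together had 132522 and 123903 reads (1.08-fold higher in AFT024, 1.07 to 1.09).

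Large families with broad expression had few calls. In the let-7 and miR-98 family, which promotes differentiation, 22 of 25 arms lay between the 2-fold limits, with a median of -0.24. In the miR-17 family clusters, which promote proliferation, 19 of 19 arms lay between (median -0.49). All of these were on the lower side in AFT024 (range -0.82 to -0.10), and the listed arms summed to 1.52-fold (1.51 to 1.52) higher in BFC012. With the 10 most-read arms left out of the totals that median was -0.25. In the miR-30 family 12 of 12 lay between (median -0.25), of which 1 was called higher once the 10 most-read arms were left out. miR-143-3p, abundant in mesenchymal cells, had 866651 and 723977 reads (1.21-fold, 1.20 to 1.21). In the blood-enriched list 4 of 7 kept arms were lower, all of them miR-486 arms, 1 was higher and 2 lay between (median -2.21). The higher one was miR-150-5p, with 137 and 33 reads (4.19-fold, 2.85 to 6.33). Of the miR-486 arms, miR-486a-5p had 7963 reads in AFT024 and 37520 in BFC012 (4.67-fold, 4.56 to 4.78), and its near-identical partner miR-486b-5p had 7624 and 37963. The red-cell miRNAs miR-144 and miR-451a had 26 and 15, and 25 and 38 reads, and Ank1, the gene that holds miR-486, had 830 and 2701 polyA reads.

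miRNAs that lie inside a gene, in an intron or an exon, were set against the polyA reads of that host gene. Among genes with 20 or more polyA reads in a line, 12.3% were 2-fold or more higher in AFT024 and 8.79% lower. In a list of host genes drawn up from general knowledge, 54 pairs could be compared: in 15 the leading arm and the host differed 2-fold or more in the same direction, in 1 in opposite directions, in 3 the miRNA alone, in 4 the host alone and in 31 neither. Over the 41 host genes Spearman's rho was 0.74 and Pearson's r 0.70, given as a description since pairs share libraries. For miR-672 the listed host Dmd, the opposite pair, was wrong by position: the hairpin lies in an intron of Nexmif at chrX:104116175-104116274. The miR-760 hairpin was likewise not placed inside its listed host Bcar3, on the gene's strand. Taking these pairs out, a choice made after their values were seen, left 15 in the same direction and 0 opposite and raised rho to 0.93. The 15 pairs came from 11 host genes, as several arms of the Sfmbt2 list share a listed host. Some remaining pairs were not checked by position, among them those of miR-455, miR-486a, miR-615 and the Sfmbt2 arms.

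Taking instead every annotated gene with 20 or more polyA reads that holds a hairpin gave 174 pairs over 149 host genes (120 hairpins in an intron, 54 in an exon), with 24 in the same direction, 1 opposite, 10 with the miRNA alone, 17 with the host alone and 122 with neither (rho 0.62, r 0.76). The opposite pair was miR-196a-2 with Hoxc5, where the leading arm is the 5p arm shared with the HoxB copy. Pairs higher in AFT024 included X-linked and imprinted genes. miR-676-3p, in an intron of Eda at chrX:100381097-100381185, had 6562 and 12 reads (552-fold, 316 to 1069), and Eda, a ligand in ectodermal development, had 299 and 0 polyA reads. miR-335-3p, in an intron of the imprinted gene Mest at chr6:30741299-30741396, had 348 and 0 reads, at least 117-fold higher, and Mest had 146 and 0. miR-672-5p had 929 and 23 reads (40.8-fold, 27.0 to 64.6), and Nexmif had 83 and 0.

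miR-130b-3p, at chr16:17124061-17124142, had 5866 and 330 reads (17.9-fold, 16.1 to 20.1), miR-301b-3p beside it had 847 and 35, and their host 2610318N02Rik had 113 and 0 polyA reads. miR-582-3p, in an intron of the phosphodiesterase gene Pde4d, had 3199 and 138 reads (23.4-fold, 19.7 to 28.0), and Pde4d had 1057 and 88. miR-149-5p, in an intron of the glypican gene Gpc1, had 16282 and 1583 reads (10.4-fold, 9.86 to 10.9), and Gpc1 had 4282 and 304. In these pairs the host and the miRNA were both lower in BFC012.

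**Figure D4:**
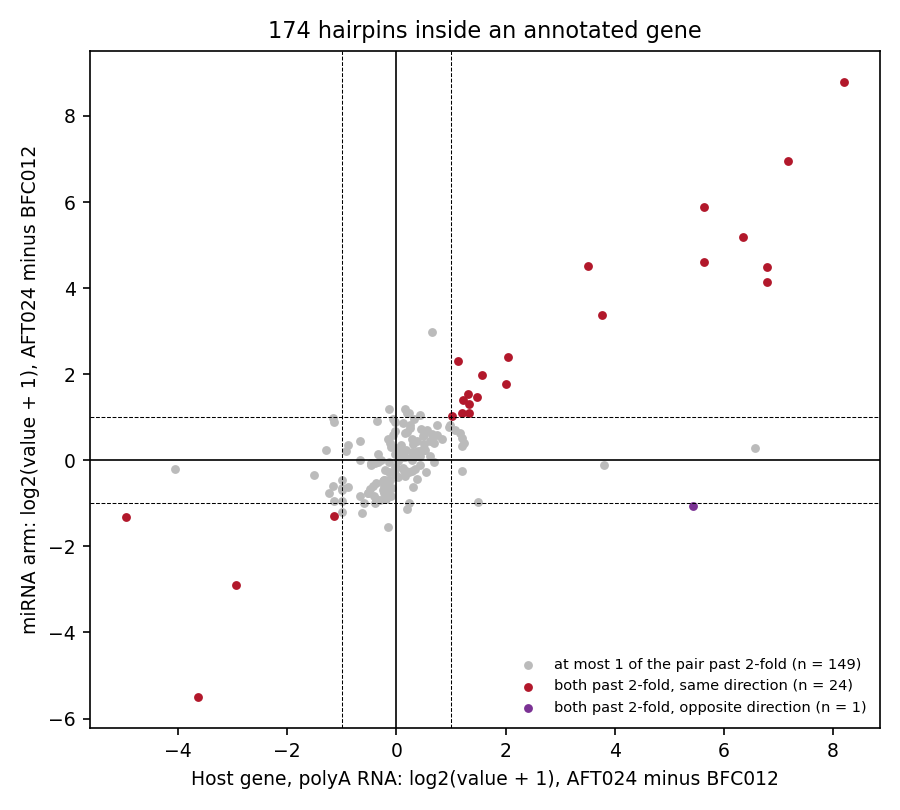
Difference in log2(value + 1), AFT024 minus BFC012, of the leading miRNA arm of each of 174 hairpins (y axis) against that of the annotated gene holding it in polyA RNA (x axis), with 1 point per hairpin and dashed lines at 2-fold. The 24 red pairs differ in the same direction, the 1 purple pair in opposite directions, and the grey pairs have at most 1 member past 2-fold.

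Arm choice was mostly the same in the lines. Of 394 hairpins with 20 or more reads in each line, 309 (78.4%) differed by under 5 percentage points in the share of reads from the 5p arm, and the median absolute difference was 0.995 points. The leading arm differed in 9 (2.28%), and in 2 of these the exact Clopper-Pearson intervals of both lines were clear of 50%.

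The extreme case was miR-760, an exonic hairpin of Gm17494 at chr3:122293585-122293703. AFT024 cells had 1322 reads of the 5p arm and 7 of the 3p arm, a 5p share of 99.5% (98.9 to 99.8). BFC012 cells had 0 and 1338, a share of 0%, with an upper limit of 0.275%. The total of the hairpin was thus nearly equal while the arm named in the deposited table differed, and a change of arm and a change of naming cannot be told apart from these counts. Exosomes of AFT024 had 0 reads of the 5p arm and 198 of the 3p arm, and those of BFC012 had 0 and 110, so the merged AFT024 cell column was the only one of the 4 small RNA columns with reads of the 5p arm. Whether 1 or both AFT024 cell libraries carry it cannot be told from merged values. The cause was not tested. The second case, miR-125b-1, had 5p shares of 45.9% and 50.9%. Reads named for the 5p arm of the other copy, miR-125b-2-5p, were not in that share. That arm had a log2 difference of -0.47 beside -0.48 for miR-125b-1-5p. Which arm leads at miR-125b-1 can therefore depend on how 5p reads were split between the copies. miR-369, in the Dlk1-Dio3 cluster, had 109 reads of the 5p and 91 of the 3p arm in AFT024 against 0 and 43 in BFC012.

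**Figure D5:**
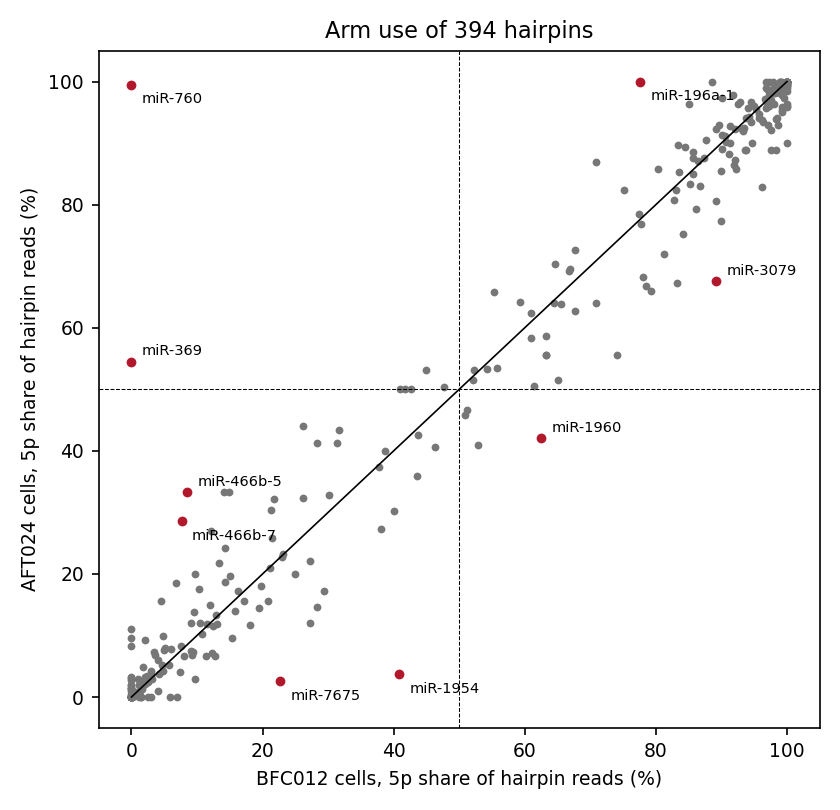
Share of reads from the 5p arm, in percent of the reads of both arms, of 394 hairpins in BFC012 cells (x axis) and AFT024 cells (y axis), with 1 point per hairpin, a solid line at equality and dashed lines at 50%. The 9 hairpins that differ by over 20 points are red and named, and miR-760 stands at 99.5% in AFT024 and 0% in BFC012.

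The exosomes of the lines, sequenced as separate small RNA libraries with 1120450 and 1247068 reads, gave a second readout of the line difference. In exosomes 25.2% of 714 arms were called higher in AFT024 and 22.7% lower. Of the 536 arms kept in cells and in exosomes, 55 were higher in both and 58 lower in both, while 7 and 4 were called in opposite directions. The shared arms were 50.5% of those higher in cells and 63.7% of those lower in cells, and 43.7% and 53.7% of those called in exosomes. Over these arms rho was 0.50 and r 0.50, a description of arms that share libraries.

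Several of the differences above were present in exosomes. miR-676-3p had 804 reads in AFT024 exosomes and 3 in BFC012 exosomes, miR-196b-5p had 37 and 1036, and miR-351-5p had 5183 and 60005. Among arms kept in both materials, 12 of 12 of the miR-322 cluster and 19 of 26 of the Sfmbt2 list were lower in AFT024 exosomes. Other lists carried over less. Only 1 of 8 arms of the miR-199 and miR-214 list and 2 of 9 of the miR-181 family were higher in AFT024 exosomes. In the blood-enriched list 3 of 7 were higher and 2 lower. The Dlk1-Dio3 cluster did not carry over as a whole: of 36 arms kept in both materials, 12 were higher in AFT024 exosomes, 7 lower and 17 between. miR-127-3p had 8005 and 6342 reads in the exosomes beside 8639 and 164 in the cells. The exosome libraries held far fewer miRNA reads than the cell libraries, so these counts compare the lines and not the materials. miR-411-5p had 1076 and 402 reads in the exosomes, and miR-434-3p had 3 and 20. The line that had few reads of these miRNAs in its cells therefore had reads of some of them in its exosomes. The cause was not tested.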

How the data were processed

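Small RNA of AFT024 and BFC012 cells was compared, with exosome small RNA and cell polyA RNA as further readouts. Per the labels, RNA was extracted with Trizol, and small RNA libraries were made from what remained after polyA selection. The submitters' processing notes name TopHat, Cufflinks, Bowtie and the build mm10, with no role or version, and the counting step is not given in those sources. The deposited small RNA table holds a normalized signal: the authors scaled reads by a factor per library (2.81 for AFT024 cells, 2.84 for BFC012 cells). The authors' deposited pairwise table holds whole read counts. The deposited polyA values are likewise scaled reads, and every value came out whole within 0.01 reads. FPKM per the file headers was not used for any result. The authors' p, q and fold columns were not used.

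Arms with a value of 10 or more in a line were kept, and log2(value + 1) was differenced, with 2-fold as the call. Folds are ratios of scaled reads in the direction of the higher line, with exact Clopper-Pearson 95% intervals, computed in Python 3.11.15 with scipy 1.17.1. A fold against 0 reads is a bound from 3 reads in that library. PCR reads are not independent molecules, so intervals cover counting error only. Hosts needed 20 polyA reads and hairpins 20 reads. Host positions use GENCODE M21, of the same assembly as RefSeq GRCm38.p6. Named arms are the 12 highest and 12 lowest with a value of 100 or more, the 10 most-read per line, up to 6 per list and those at 0 reads, and arms of the host and copy comparisons. The members and lists were chosen with earlier results of these data known. Hox genes and other polyA genes, host positions, seeds and copy-specific arms were picked after values had been seen. The code was tested on simulated counts. Alternatives were pseudocounts, filters, scalings (TMM from edgeR 4.0.16), thresholds and collapsed copies.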

Additional observations from a re-analysis of the deposited data

Results flagged for a closer look

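2 arms with a value of 100 or more in cells were called in opposite directions in cells and exosomes, and the difference between the materials was not tested. miR-434-3p was higher in AFT024 cells (log2 difference 7.99, from 6002 and 21 reads) and lower in AFT024 exosomes (-2.59, from 3 and 20 reads). miR-344d-3-5p was lower in AFT024 cells (-2.16, from 93 and 430 reads) and higher in AFT024 exosomes (2.92, from 10 and 1 reads). The exosome values rest on few reads.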

How the results depend on the processing

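No paired analysis was possible because the deposited columns hold 1 merged value per group and carry no replicate number, and for the same reason no replicate could be left out. Against 133 higher and 137 lower arms, dropping the filter gave 275 and 243, a minimum value of 100 gave 59 and 51, and a 4-fold threshold gave 85 and 53. Without the Dlk1-Dio3 and Sfmbt2 lists, an alternative chosen after seeing the data, the counts were 87 and 74. The other alternatives stayed within 1.5 times the count: 114 and 106 with a pseudocount of 10, 110 and 106 where the whole interval had to pass 2-fold, 120 and 96 with 1 arm per mature name, and 131 and 141 with TMM. With the 10 most-read arms left out of the totals, all 133 higher calls and 104 of the 137 lower calls were kept. Hairpins with another leading arm numbered 6 of 247 at 100 reads and 8 of 338 with copies collapsed, in place of 9 of 394. Same-direction host pairs were 24 of 174 over every annotated host in place of 15 of 54, and 14 of 52 at 100 host reads. Arms in the same direction in cells and exosomes were 51 of 284 at a value of 100 in place of 113 of 536, and 115 in RPM. Of 188 named arms and 29 list medians, none called at 2-fold changed sign under the pseudocount, filter, scaling and copy alternatives. Sizes did move: 264 alternative values of named arms left the counting interval of the main value, and 1374 stayed inside. For list medians, with the interval of the arm nearest the median, the numbers were 73 and 187. Values near the limit of 3 reads, and arms that share a sequence with another copy, are the least certain.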

Other observations

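The 3p arms named for the copies of the miR-125b and let-7c genes also differed. miR-125b-1-3p had 93822 AFT024 and 108215 BFC012 reads (1.14-fold higher in BFC012, 1.13 to 1.15), whereas miR-125b-2-3p had 4905 and 1768 (2.80-fold higher in AFT024, 2.65 to 2.96). let-7c-1-3p had 360 and 126 reads (2.88-fold higher in AFT024, 2.35 to 3.56), and let-7c-2-3p had 1211 and 1697 (1.39-fold higher in BFC012). The sequence of let-7c-2-3p is the same as that of let-7a-1-3p, so its reads cannot be assigned to the let-7c-2 gene. miR-99a-5p, which lies beside let-7c-1 in Mir99ahg, had 4807 and 2265 reads, and the host had 129 and 53 polyA reads. miR-100-5p, its relative on chromosome 9, had 40349 and 103073 reads and was 2.53-fold (2.50 to 2.56) higher in BFC012.

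Of 27 mature sequences counted under more than 1 arm name, the median spread of the log2 difference among the names was 0.05. The largest was 2.37, for miR-9-3p, where the name miR-9-2-3p had 87 and 0 reads, miR-9-1-3p 102 and 13, and miR-9-3-3p 113 and 16.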
